A study of Homo sapiens with 12 samples.

Results

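The genes described here are the UBE2 genes of the human genome, chosen as every probe whose symbol on the array starts with UBE2. The rule took 74 of 48797 probes, which stand for 35 symbols, and 30 of these genes, of 11443 in all, were bright enough to test, reaching 64 in quantile-normalised intensity on 3 arrays or more. A gene passed, or was called, at a limma p under 0.05 after Benjamini-Hochberg adjustment over all 11443 genes. HT1080 cells, a human fibrosarcoma line, had been stably transduced with ING2 or with a mutant of its lipid-binding region, and both lines were given etoposide or its DMSO vehicle. The 4 groups were ING2-WT in DMSO, ING2-WT in 100 uM etoposide, ING2-6K/Rmt in DMSO and ING2-6K/Rmt in 100 uM etoposide, each for 16 hours by the labels and each on 3 arrays. The text of the study gives a longer time under etoposide for its expression work, so the hours are not settled. ING2, a reader of histone methylation that sits in a deacetylase complex, was introduced into all of these cells, and untransduced cells were not among the groups. Nothing in the labels tells whether each array had a culture of its own, and a p-value here may therefore reflect technical spread alone.

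Ubiquitin-conjugating enzymes take ubiquitin from an activating enzyme and, with a ligase, pass it to a substrate or to a growing chain. UBE2C and UBE2S serve the anaphase-promoting complex, the ligase that drives exit from mitosis: UBE2C starts the chains and UBE2S lengthens them. UBE2T works with the Fanconi ligase FANCL at DNA crosslinks. UBE2N, with UBE2V1 or UBE2V2 as its partner, builds K63 chains, linked through lysine 63 of ubiquitin. These recruit repair and signalling proteins rather than the proteasome. Etoposide traps topoisomerase II on DNA and leaves double-strand breaks. The study names UBE2N, so the question here was how UBE2C, UBE2S and UBE2T behaved beside UBE2N and the rest of the family.

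The arrays were checked before any comparison. Between 26.8 and 30.3% of probes reached an intensity of 64, and 8 of 9 mesenchymal markers reached it on 6 to 12 arrays, with VIM, CDH2, LGALS1 and TAGLN on 12 of 12 and THY1 on 0. Of the 7 epithelial markers 5 did so, on 2 to 12 arrays, with the keratin KRT8 on 12 and KRT19 and ESRP1 on 0. Of the blood markers 2 did so, on 1 and 4 arrays, and PTPRC and CD3E on 0. The pair of ING2 probes read 8853 to 21056 on arrays 1 and 2 of ING2-6K/Rmt in etoposide and at most 649.8 on the other 10 arrays, so they did not separate the lines as labelled. CDKN1A, a p53 target that is known to rise after DNA damage, read 2964 to 4277 on ING2-WT in DMSO and 14618 to 16638 in etoposide, but 11504 to 16293 on the arrays labelled ING2-6K/Rmt in DMSO and 3069 to 5896 on those labelled etoposide. The damage-responsive gene therefore ran against the treatment labels of ING2-6K/Rmt, and directions on those arrays are given below as labelled; whether labels were exchanged was not tested. Arrays numbered 3 also stood apart, correlating at 0.771 to 0.948 with the other arrays of their group, against 0.969 to 0.98 between arrays 1 and 2.

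UBE2C was the UBE2 gene that differed most. Its intensities were 3013, 3187 and 1681 on ING2-WT in DMSO and 271, 262 and 75.1 in etoposide. On the arrays labelled ING2-6K/Rmt they were 181, 170 and 85.5 in DMSO and 2190, 2169 and 1574 in etoposide. The treated and vehicle arrays did not overlap in either line, and the lines ran in opposite directions. In RNA of whole cultures, fewer cells that express a gene and less of its RNA per cell cannot be told apart. On the log2 scale UBE2C fell by 3.85 (SE 0.51, n = 3 per group) with etoposide in ING2-WT, a 14.5-fold decrease, and rose by 3.82 (SE 0.51) on the arrays labelled ING2-6K/Rmt, 14.2-fold (limma, adjusted p = 0.00173 and 0.0019). The decrease in ING2-WT was 9.49-fold without array 3 of ING2-WT in etoposide and was still called (limma, adjusted p = 0.00134). A separate probe for UBE2C followed the first at r = 0.995 over the 12 arrays, as a description of arrays that share their groups, and gave -3.65 and 4.08. The next probe gave -1.76 and 1.98, and the last never reached 64.

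UBE2T showed the same order of groups. Its 3 ING2-WT arrays read 762, 988 and 306 in DMSO and 97.7, 161 and 149 in etoposide. Arrays labelled ING2-6K/Rmt read 143, 125 and 77.7 in DMSO and 321, 340 and 392 in etoposide. Again no treated array overlapped a vehicle array of the same line. UBE2T fell by 2.21 (SE 0.43, n = 3 per group) in ING2-WT, 4.62-fold (limma, adjusted p = 0.0134). The difference of 1.65 (SE 0.43) on the arrays labelled ING2-6K/Rmt did not pass (limma, adjusted p = 0.112). The call in ING2-WT rested on single arrays: the adjusted p was 0.0641 without array 1 and 0.0655 without array 2 of ING2-WT in DMSO, and 0.0561 without array 1 of ING2-WT in etoposide.

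**Figure D1:**
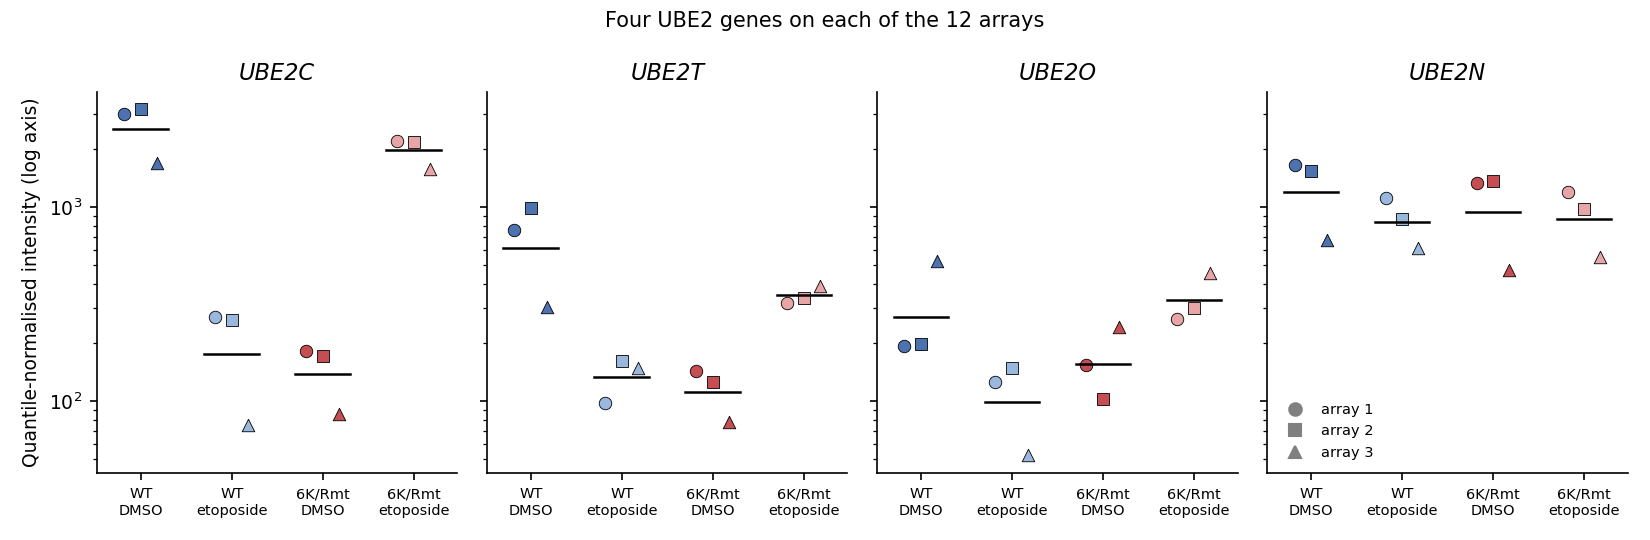
Quantile-normalised intensity (log axis) of UBE2C, UBE2T, UBE2O and UBE2N on each of the 12 arrays by labelled group, with circles, squares and triangles for arrays 1, 2 and 3 and a line at the mean of the log2 values. UBE2C ran from 75.1 to 3187 with the ING2-WT and ING2-6K/Rmt arrays in opposite directions, while UBE2N stayed between 473 and 1648 with array 3 lowest in each group.

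UBE2S, the third cell-cycle member, could not be compared. Its only probe read between -21.6 and 22.7 on the 12 arrays and reached 64 on 0 of them. The level of UBE2S is therefore not known from these arrays, and nothing follows for the gene itself. UBE2B, UBE2D1, UBE2NL and UBE2U were likewise left untested because no probe of theirs reached 64 on 3 arrays.

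The groups could be ordered by the level of the cell-cycle members, although neighbours did not separate. UBE2C averaged 2627 ± 824 (SD, n = 3) on ING2-WT in DMSO and 1977 ± 350 on ING2-6K/Rmt in etoposide, and these groups overlapped. The low groups were ING2-WT in etoposide at 203 ± 111 and ING2-6K/Rmt in DMSO at 145 ± 52.2, which overlapped as well. For UBE2T the same order held, with 685 ± 347, 351 ± 36.7, 136 ± 33.7 and 115 ± 33.8. The high and low pairs of groups did not overlap for UBE2C, and for UBE2T the lowest of the high arrays, at 306, was above the highest of the low arrays, at 161.

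UBE2N, which the study names, behaved otherwise. Its intensities were 1648, 1535 and 673 on ING2-WT in DMSO and 1110, 862 and 615 in etoposide. For the arrays labelled ING2-6K/Rmt they were 1328, 1355 and 473 in DMSO and 1199, 980 and 552 in etoposide. Treated and vehicle arrays overlapped in both lines, and array 3 was the lowest of its group in all 4 groups. The log2 difference was -0.51 (SE 0.51, 95% interval -1.62 to 0.60) in ING2-WT and -0.13 (95% interval -1.24 to 0.98) on the arrays labelled ING2-6K/Rmt (limma, adjusted p = 0.63 and 0.955). These intervals allow a change of either sign, so the arrays do not show that UBE2N was level. Without the arrays numbered 3, UBE2N fell by 0.70 (SE 0.18, n = 2 per group) in ING2-WT and passed (limma, adjusted p = 0.031).

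The partners of UBE2N were no clearer. UBE2V2 read 1951, 2196 and 605 on ING2-WT in DMSO and 1393, 1448 and 1068 in etoposide, and 2225, 1809 and 693 followed by 1135, 1091 and 528 on the arrays labelled ING2-6K/Rmt. Its differences of -0.09 (SE 0.56) and -0.70 (SE 0.56) did not pass (limma, adjusted p = 0.951 and 0.731). Both became calls once the arrays numbered 3 were left out, at -0.54 (SE 0.15) and -0.85 (SE 0.15), with limma adjusted p = 0.0424 and 0.00966. UBE2V1, the catalytically inactive partner used in signalling, was near background at 2.3 to 105 and reached 64 on 3 of 12 arrays, so no change is given for it. Of 15 ligases and hydrolases that act with UBE2N, 11 were measured and 0 passed in either line, with 2 and 0 at an unadjusted limma p under 0.05 and medians of -0.36 and -0.01. Over all 11443 genes that cut took 2199 in ING2-WT and 1086 on ING2-6K/Rmt, counts that stand beside each list given at it.

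UBE2C and UBE2T were then set against UBE2N on the same array, which cancels any factor that scales a whole array. Probes differ in brightness for reasons of their own, so only the change of this difference between groups is read, not its sign. UBE2C minus UBE2N was 1.57, 1.75 and 2.02 log2 units on ING2-WT in DMSO and -1.34, -1.02 and -2.34 in etoposide. On the arrays labelled ING2-6K/Rmt the values were -2.18, -2.30 and -1.77 in DMSO and 1.56, 1.84 and 2.21 in etoposide. Vehicle and treated arrays did not overlap in either line. The change relative to UBE2N was -3.34 (SE 0.42) in ING2-WT and 3.95 (SE 0.24) on ING2-6K/Rmt, each with an exact permutation p of 0.1, which is the smallest that 3 arrays against 3 can give.

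For UBE2T minus UBE2N, centred in the same way, the ING2-WT arrays read 0.89, 1.37 and 0.87 in DMSO and -1.50, -0.42 and -0.05 in etoposide. The arrays labelled ING2-6K/Rmt read -1.21, -1.43 and -0.60 in DMSO and 0.10, 0.48 and 1.51 in etoposide. The changes were -1.70 (SE 0.47) and 1.78 (SE 0.49), both with an exact permutation p of 0.1. The lines differed in this change by 7.30 (SE 0.48) for UBE2C and 3.47 (SE 0.68) for UBE2T. The exact two-sided permutation of treatment labels within each line gave p = 0.005 for both, the smallest possible, and 0.015 after Benjamini-Hochberg adjustment over 6 differences. This permutation assumes no treatment effect in either line, so its p does not by itself test whether the effects were equal. Without the arrays numbered 3 the differences were 6.78 and 3.70, with an exact permutation p of 0.0556, the smallest that remained possible.

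**Figure D2:**
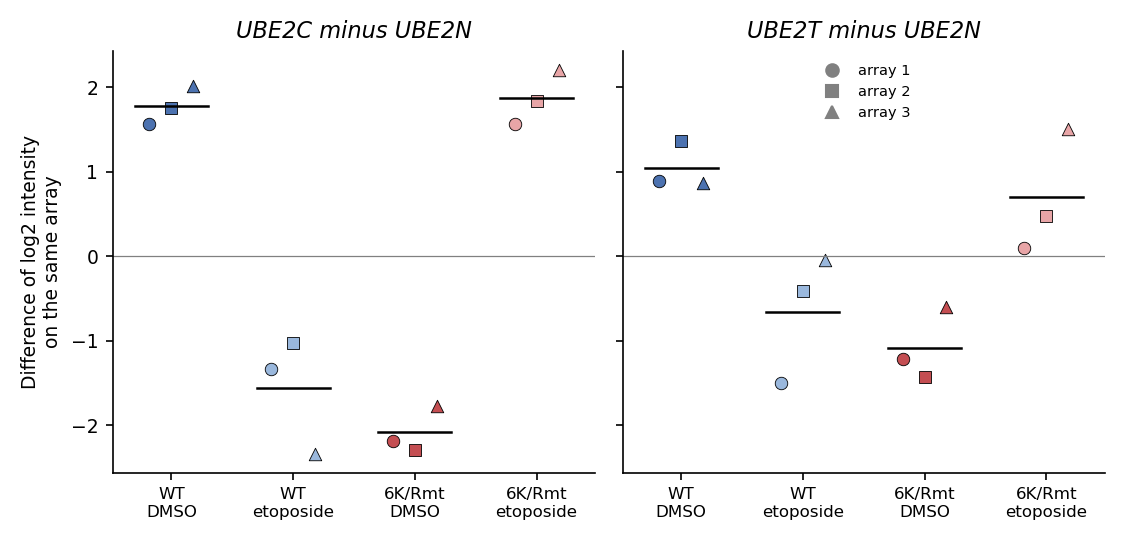
Log2 intensity of UBE2C (left) and UBE2T (right) minus that of UBE2N on the same array, by labelled group, with symbols for arrays 1, 2 and 3 and a line at the group mean. The UBE2C difference was 1.57 to 2.02 on ING2-WT in DMSO and -2.34 to -1.02 in etoposide, with the reverse order on the arrays labelled ING2-6K/Rmt.

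Promoter sequence is shown for UBE2T, which fell in ING2-WT, and for UBE2N, which did not pass, to set a cell-cycle member beside the gene the study names. The sequences come from RefSeq (GRCh38.p14), where 26 of the 35 symbols matched. Each run is the 250 bases before the start of the gene, read 5′ to 3′ on the minus strand, at chr1:202341937-202342186 for UBE2T and chr12:93441948-93442197 for UBE2N. Capitals mark TTTGAA or TTCGAA (the core of the cell cycle homology region), CCAAT, and TTTGGCGC or TTTCGCGC (E2F motifs), searched on both strands; no marked matches overlap.
UBE2T: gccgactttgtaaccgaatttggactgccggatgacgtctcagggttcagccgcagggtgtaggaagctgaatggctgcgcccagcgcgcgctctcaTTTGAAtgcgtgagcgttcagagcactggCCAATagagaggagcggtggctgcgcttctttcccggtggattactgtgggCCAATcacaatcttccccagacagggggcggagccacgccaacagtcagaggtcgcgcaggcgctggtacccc
UBE2N: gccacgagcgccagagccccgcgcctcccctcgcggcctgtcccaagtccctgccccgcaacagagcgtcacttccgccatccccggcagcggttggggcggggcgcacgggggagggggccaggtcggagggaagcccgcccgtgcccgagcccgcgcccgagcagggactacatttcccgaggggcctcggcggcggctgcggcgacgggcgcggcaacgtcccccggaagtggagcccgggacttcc
The UBE2T window held TTTGAA 153 bases before the start and CCAAT 124 and 73 bases before it, and the UBE2N window held 0 of these runs of letters. TTTGAA was in 4 of the 26 UBE2 promoters and CCAAT in 8, against 13.3 and 32% of 35116 promoters of the same length. TTCGAA, TTTGGCGC and TTTCGCGC were in 0 of the 26, against 1.19, 0.55 and 0.439% of all promoters. A match describes the letters only and is no evidence of a bound factor.

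Across the family, calls were few and were confined, in these fits of all 12 arrays, to UBE2C and UBE2T. In ING2-WT, 0 of the 30 UBE2 genes rose and 2 fell with etoposide (limma), beside 1.93 and 2.95% of all 11443 genes, or 4.89% in either direction. At an unadjusted limma p under 0.05 the counts were 0 and 3, beside 1073 and 1126 of all genes. On ING2-6K/Rmt, as labelled, 1 rose, UBE2C, and 0 fell, beside 1.48 and 0.149% of all genes, or 1.63% in either direction. The unadjusted cut gave 2 and 0 there, beside 610 and 476 of all genes. An unmoderated linear model gave the same counts of called UBE2 genes, and leaving out array 3 of ING2-WT in DMSO added UBE2T to the ING2-6K/Rmt call. With the replicate number as a block UBE2J1, an enzyme of degradation at the endoplasmic reticulum, was added in ING2-WT at -1.06 (SE 0.28; limma, adjusted p = 0.0429), and 10.6% of all genes were then called. The median log2 difference was -0.31 over the UBE2 genes in ING2-WT and -0.27 on ING2-6K/Rmt, against -0.003 and -0.03 over all genes. Estimates lay below 0 for 22 and 21 of the 30 genes, against 50.1 and 51.8% of all genes.

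**Figure D3:**
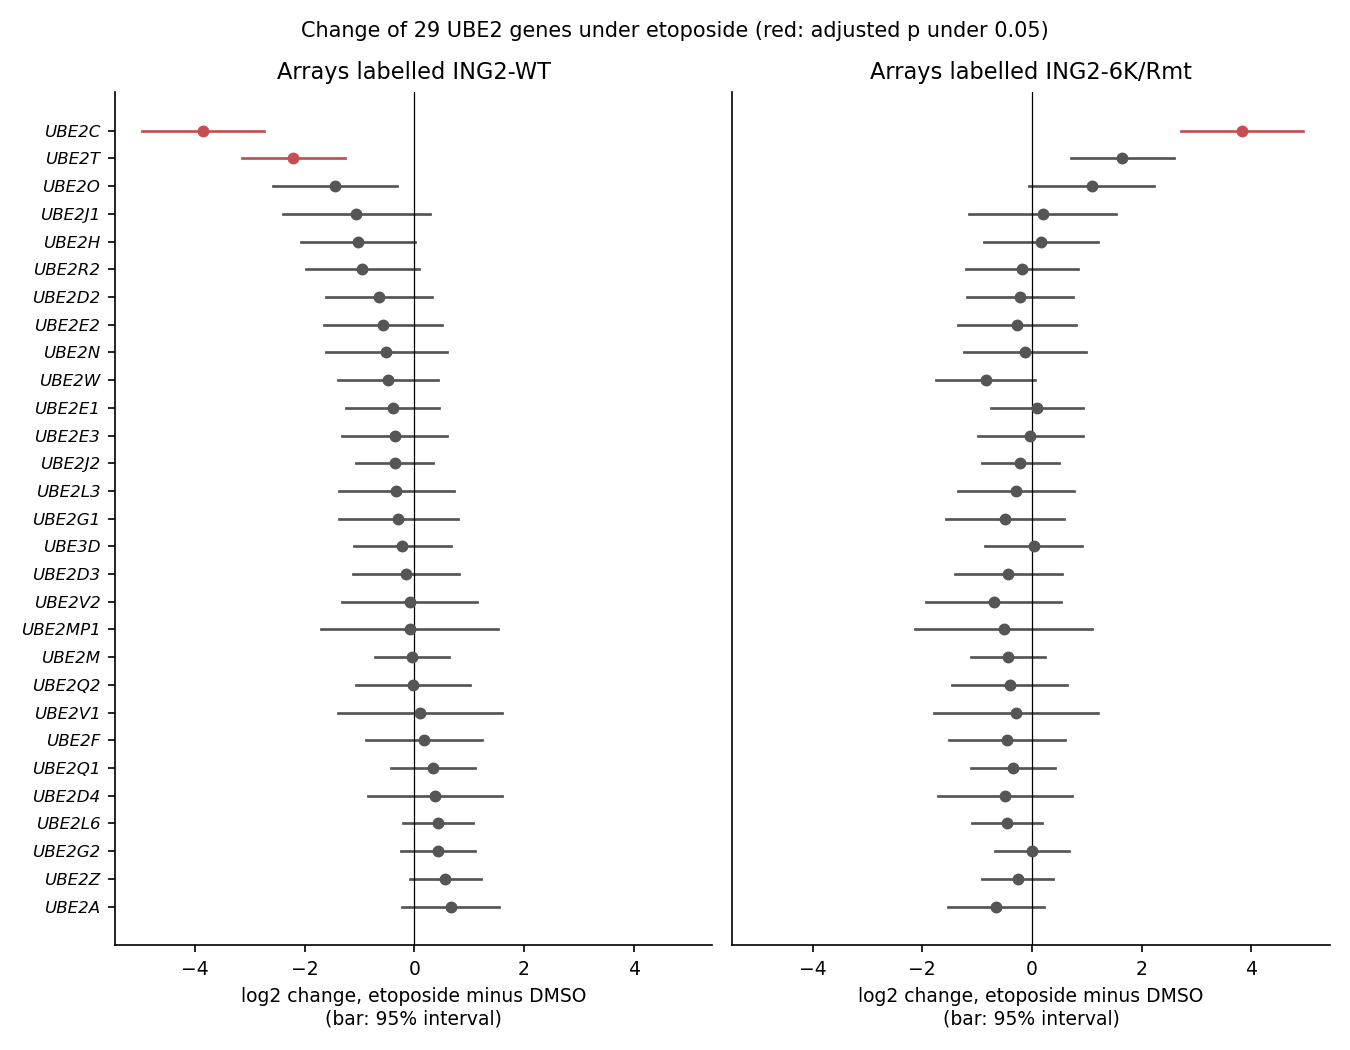
Log2 change with etoposide (points) and its 95% interval (bars) for UBE2 genes on the arrays labelled ING2-WT (left) and ING2-6K/Rmt (right), ordered by the estimate in ING2-WT, with red for an adjusted p under 0.05. UBE2C and UBE2T lie far to the left in ING2-WT and UBE2C far to the right on ING2-6K/Rmt, and most other intervals span 0.

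Without the arrays numbered 3, more UBE2 genes passed and more of all genes did. In ING2-WT 11 UBE2 genes were called, all lower, or 36.7%, against 28.8% of all genes in either direction, 13.8% higher and 15% lower. Beside UBE2C and UBE2T these were UBE2N, UBE2V2, UBE2D2, UBE2E1, UBE2E2, UBE2E3, UBE2J1, UBE2L3 and UBE3D, at log2 differences of -0.53 to -1.33 for all but the cell-cycle pair. On the arrays labelled ING2-6K/Rmt 9 were called, 3 higher and 6 lower, against 17.4 and 17.5% of all genes, or 35% in either direction. The higher genes were UBE2C, UBE2T and UBE2O and the lower ones UBE2D3, UBE2F, UBE2G1, UBE2M, UBE2V2 and UBE2W. These genes were named after their values were seen. On arrays 1 and 2 labelled ING2-6K/Rmt, a further UBE2G1 probe read 458 and 445 in DMSO and 515 and 385 in etoposide. A further UBE2D3 probe read 2308 and 2164, then 2225 and 1863. Both overlapped between treatments, while a further UBE2W probe was lower in etoposide, at 82.8 and 78.0, then 71.1 and 29.2.

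UBE2O, a large enzyme that acts as both conjugating enzyme and ligase on unassembled proteins, came nearest to the cell-cycle members without passing. Its intensities were 191, 196 and 528 on ING2-WT in DMSO and 126, 147 and 52.4 in etoposide. The arrays labelled ING2-6K/Rmt read 154, 102 and 240 in DMSO and 263, 302 and 455 in etoposide. The groups did not overlap in either line, but array 3 held the extreme value in all 4 groups. The differences were -1.45 (SE 0.52) and 1.09 (SE 0.52), with limma adjusted p of 0.147 and 0.559. Without the arrays numbered 3 the second became a call, at 1.17 (limma, adjusted p = 0.0107), while the first shrank to -0.51 (adjusted p = 0.131).

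Other members carry ubiquitin-like modifiers. UBE2M and UBE2F, which carry NEDD8 to the cullins, did not pass in either line and differed by -0.05 (SE 0.31) and 0.18 (SE 0.48) in ING2-WT. On ING2-6K/Rmt they differed by -0.44 and -0.45, and both passed as lower without the arrays numbered 3 (limma, adjusted p = 0.019 and 0.014). Around them, 12 of 14 NEDD8 genes were measured and 0 passed in either line (0 at an unadjusted p under 0.05), and 15 of 16 SUMO genes were measured with 0 passing (2 and 1 at an unadjusted p under 0.05). With the replicate block 2 SUMO genes, RANBP2 and SAE1, were called lower in ING2-WT, beside 5.38% of all genes.

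UBE2L6 conjugates the interferon-induced modifier ISG15. It read 1888, 1267 and 1338 on ING2-WT in DMSO and 2269, 2009 and 1719 in etoposide, and 2069, 2710 and 1592 followed by 1581, 1688 and 1306 on the arrays labelled ING2-6K/Rmt. Vehicle and treated arrays overlapped, and the differences of 0.43 (SE 0.29) and -0.45 (SE 0.29) did not pass (limma, adjusted p = 0.457 and 0.663). A second probe gave -0.79 and -0.90. Its ING2-WT arrays read 207, 186 and 143 in DMSO and 273, 246 and -8.84 in etoposide. The UBE2L6 probes thus disagreed in sign in ING2-WT because of the single array at -8.84. The other etoposide arrays of ING2-WT read above every vehicle array of that line with either probe. ISG15 itself rose in ING2-WT from 289, 225 and 254 to 1738, 1532 and 1428, by 2.62 (SE 0.49; limma, adjusted p = 0.0116), a call that was lost without array 2 of ING2-WT in DMSO. ISG15 on the arrays labelled ING2-6K/Rmt read 477, 793 and 2054 in DMSO and 346, 417 and 166 in etoposide, a difference that did not pass. In ING2-WT ISG15 was the 1 called of the 5 ISG15-conjugation genes measured, beside 1.93% of all genes higher. On ING2-6K/Rmt 0 were called, beside 1.63% in either direction. At an unadjusted limma p under 0.05 the list counted 3 and 1. Its median difference was 1.25 in ING2-WT and -1.02 on ING2-6K/Rmt.

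The remaining members gave no calls. UBE2A, a RAD6 enzyme of DNA-damage tolerance, read 1099, 1123 and 526 on ING2-WT in DMSO and 1169, 1561 and 1407 in etoposide, groups that did not overlap, with a difference of 0.66 that did not pass (limma, adjusted p = 0.407). The 7 measured UBE2D, UBE2E and UBE2W genes, broad partners of many ligases, ranged from -0.65 to 0.38 in ING2-WT and from -0.84 to 0.09 on ING2-6K/Rmt, with 0 called and 0 at an unadjusted limma p under 0.05. The 6 enzymes of degradation at the endoplasmic reticulum and of proteasome-directed chains, UBE2K among them from outside the name rule, ranged from -1.06 to 0.43 and from -0.70 to 0.19, again with 0 called and 0 at an unadjusted p under 0.05. UBE3D, which the array lists under an old symbol, UBE2CBP, is not a conjugating enzyme; it differed by -0.22 and 0.03. Groups that did not overlap were found for 3 genes higher and 4 lower of 30 in ING2-WT, beside 13.3 and 10.3% of all genes, and for 3 higher and 1 lower on ING2-6K/Rmt, beside 9.55 and 9.67%.

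The difference of the etoposide effects between the lines, ING2-6K/Rmt minus ING2-WT, was tested directly. Of the 30 UBE2 genes 2 were higher and 0 lower (limma), beside 3.85 and 2.65% of all genes, or 6.49% in either direction. At an unadjusted limma p under 0.05 the counts were 3 and 1, beside 1234 and 1283 of all 11443 genes. UBE2C differed by 7.68 (SE 0.72; adjusted p = 6.42e-05) and UBE2T by 3.85 (SE 0.61; adjusted p = 0.00241). UBE2O differed by 2.54 (SE 0.73) and did not pass (adjusted p = 0.0637). It passed when arrays were scaled to their 75th percentile (adjusted p = 0.0434), without array 3 of ING2-6K/Rmt in DMSO (adjusted p = 0.0491) and without all arrays numbered 3 (adjusted p = 0.0092). Without those arrays 5 UBE2 genes were called higher and 4 lower, beside 17.1 and 18.3% of all genes, or 35.4% in either direction. UBE2N differed by 0.38 (95% interval -1.19 to 1.95).

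The same arrays were compared between lines within a treatment, so these comparisons share arrays with those above. In DMSO, 0 UBE2 genes were higher and 2 lower on ING2-6K/Rmt (limma), beside 0.306 and 2.18% of all genes, or 2.48% in either direction. At an unadjusted limma p under 0.05 the counts were 0 and 2, beside 499 and 755 of all 11443 genes. UBE2C differed by -4.19 (SE 0.51; adjusted p = 0.000699) and UBE2T by -2.46 (SE 0.43; adjusted p = 0.00817). The UBE2T call was lost without array 1 of ING2-WT in DMSO (adjusted p = 0.0524). UBE2O, the next in size, differed by -0.80 (SE 0.52; adjusted p = 0.702). Groups did not overlap for 1 gene higher and 2 lower, beside 8.5 and 9.4% of all genes. With the arrays numbered 3 left out, 0 were higher and 4 lower, UBE2D4 and UBE3D being added, beside 11.6% of all genes in each direction and 23.2% in either.

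In etoposide, 1 UBE2 gene was higher and 0 lower on ING2-6K/Rmt (limma), beside 3.14 and 2.37% of all genes, or 5.51% in either direction. At an unadjusted limma p under 0.05 the counts were 4 and 2, beside 1401 and 1393 of all 11443 genes. UBE2C was higher by 3.48 (SE 0.51; adjusted p = 0.00373), 11.2-fold, or 7.34-fold without array 3 of ING2-WT in etoposide. UBE2T at 1.40 (SE 0.43), UBE2O at 1.74 (SE 0.52) and UBE2H at 1.41 (SE 0.48) did not pass, with limma adjusted p of 0.08, 0.0741 and 0.104. UBE2T was called on scaling to the 75th percentile (adjusted p = 0.0496) or leaving the deposited values as they were (adjusted p = 0.04). UBE2H, whose yeast relative serves the ligase that degrades gluconeogenic enzymes, read 413, 379 and 100 on ING2-WT in etoposide and 743, 754 and 528 on ING2-6K/Rmt, and a further UBE2H probe gave -0.38. Groups did not overlap for 4 genes higher and 3 lower, beside 14.2 and 19.2% of all genes. Leaving out array 3 of ING2-WT in DMSO gave 3 higher and 1 lower (UBE2T, UBE2O and UBE2D4 added), while 9.05% of all genes were then called. With all arrays numbered 3 left out, 4 were higher and 6 lower, beside 19.3 and 20.5% of all genes, or 39.7% in either direction.

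Genes around the ligase of UBE2C were counted next. Of 19 genes of the anaphase-promoting complex, its coactivators and inhibitors, 18 were measured. In ING2-WT 0 rose and 5 fell (limma; median -0.56), beside 1.93 and 2.95% of all genes. The 5 were CDC20 at -3.48 (SE 0.39; adjusted p = 0.000717) and FZR1 at -1.11 (SE 0.23; adjusted p = 0.0204), which are coactivators, and FBXO5 at -2.80, BUB1B at -2.79 and MAD2L1 at -2.43, which inhibit the complex. No core subunit of the complex was among them. Leaving out 1 array gave 2 to 5 lower genes, with CDC20 and FBXO5 called each time, and the 2 came without array 1 or array 2 of ING2-WT in DMSO. Without the arrays numbered 3, 1 gene was higher, the core subunit ANAPC11, and 8 were lower, beside 13.8 and 15% of all genes. The lower ones included the core subunits ANAPC1, ANAPC2 and ANAPC10. CDC20 rose on the arrays labelled ING2-6K/Rmt, by 4.10 (SE 0.39; adjusted p = 0.000203), as the 1 called gene of the 18 (median 0.10), beside 1.48% of all genes higher, and leaving out 1 array gave 1 to 3. CDC20 read 7112, 8288 and 3763 on ING2-WT in DMSO and 668, 794 and 300 in etoposide, and 223, 234 and 232 followed by 4277, 3727 and 3877 on the arrays labelled ING2-6K/Rmt.

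Partners of UBE2T in the Fanconi pathway were counted in the same way. Of 14 listed Fanconi genes 10 were measured, and in ING2-WT 3 fell and 0 rose, with a median of -1.04, beside 2.95 and 1.93% of all genes. FANCI, a substrate of UBE2T with FANCD2, changed by -2.62 (SE 0.26; limma, adjusted p = 0.000446), FANCD2 by -2.01 (SE 0.47; adjusted p = 0.0314) and FANCG, a core-complex subunit, by -1.92 (SE 0.29; adjusted p = 0.0032). On the arrays labelled ING2-6K/Rmt the same 3 genes rose, by 3.26, 3.53 and 2.06, and 0 fell, with a median of 0.98, beside 1.48% of all genes higher. FANCI and FANCG kept their calls in ING2-WT in each of the 12 fits that left out 1 array, and FANCD2 in 6 of them. FANCL, the ligase of UBE2T, read 253, 286 and 189 on ING2-WT in DMSO and 154, 163 and 123 in etoposide, and it was not among the calls. With the replicate block FANCL and USP1 were called as well in ING2-WT, 5 of 10 genes lower beside 5.38% of all genes.

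SAE1 and TSG101, which stand beside the family, had an etoposide effect that differed between the lines. SAE1, a subunit of the enzyme that activates SUMO, read 7359, 6916 and 4137 on ING2-WT in DMSO and 3246, 3149 and 2338 in etoposide, and 2878, 3207 and 2370 followed by 5273, 4322 and 4106 on the arrays labelled ING2-6K/Rmt. Its groups did not overlap in either line and the effects differed by 1.75 (SE 0.42; limma, adjusted p = 0.0293). TSG101, a catalytically inactive relative of the UBE2 enzymes, read 1604, 1608 and 1180 on ING2-WT in DMSO and 2456, 2724 and 2429 in etoposide, and 2899, 2794 and 1463 followed by 1352, 1332 and 1131. Its effects differed by -1.65 (SE 0.43; adjusted p = 0.0431). Both calls rested on single arrays, since SAE1 was called in 4 and TSG101 in 2 of the 12 fits that left out 1 array. In either line alone 0 of the 9 activating enzymes and 0 of the 9 relatives measured passed, with 1 of each list in each line at an unadjusted limma p under 0.05.

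The UBE2 genes also shared a pattern between arrays of 1 group. Array 3 was below arrays 1 and 2 for 25 of the 30 genes on ING2-WT in DMSO, 22 on ING2-WT in etoposide, 28 on ING2-6K/Rmt in DMSO and 23 on ING2-6K/Rmt in etoposide. Over all genes tested the shares were 48.4, 44.4, 43.9 and 44.8%. The median log2 difference of array 3 from the mean of the other 2 was -1.01, -0.62, -0.81 and -0.55 for the UBE2 genes and between -0.08 and 0.01 for all genes. In all 4 groups 15 of 30 UBE2 genes (50%) were lowest on array 3, against 17.4% of all genes. UBE2O and UBE2G2, an enzyme of degradation at the endoplasmic reticulum, were instead the highest on array 3 in 3 of the 4 groups. The labels give no other property of the arrays numbered 3, and the part of RNA quality or processing was not tested.

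**Figure D4:**
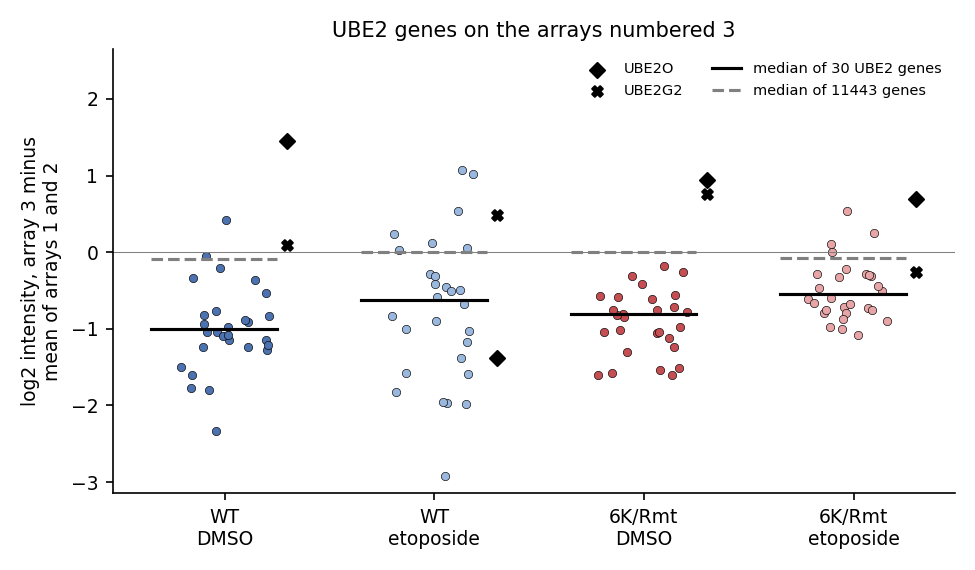
Log2 intensity on array 3 minus the mean of arrays 1 and 2 for each of the 30 UBE2 genes by labelled group, with the median of the UBE2 genes (solid line) and of all 11443 genes (dashed line); UBE2O and UBE2G2 are shown as a diamond and a cross. The UBE2 medians lie between -1.01 and -0.55 while those of all genes lie near 0.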

How the data were processed

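RNA of 12 HT1080 samples was measured on single-colour Illumina bead arrays of 48797 probes. The deposited values are linear intensities, processed in GeneSpring by the authors and, from their values, background-subtracted and scaled between arrays (the method of scaling is not given in the sources used here), with 0.434 to 26.9% of values below 0 per array; the deposited table of symbols pairs probes with gene names, and its 24 signal and detection columns, which match no label, were not used. Symbols were updated through RefSeq (4444 probes) and 7563 probes kept the array's symbol. Intensities were quantile-normalised, set to at least 16 and taken to log2. Probes with 64 or more on at least 3 arrays were kept, and the probe with the highest mean stood for its gene, which left 11443 genes.

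Group means over all 12 arrays were fitted with limma 3.58.1 in R 4.3.3 (lmFit, eBayes), and p-values were adjusted by Benjamini-Hochberg over all genes, with 0.05 as the threshold. Differences from UBE2N were tested by exact two-sided permutation over arrays. Same-numbered arrays correlated in their deviations from the group means at 0.244 to 0.348 between the ING2-WT groups and 0.376 to 0.637 between the DMSO groups. The ING2-6K/Rmt groups (-0.0386 to 0.403) and the etoposide groups (0.0999 to 0.267) had pairs at or under 0.1. Between the DMSO groups, arrays 1 and 2 gave 0.491 and 0.376, while the highest with another number was 0.511 and 0.418. Array 1 between the ING2-WT groups gave 0.244 against 0.239. The numbers therefore did not clearly pair arrays 1 and 2 in those groups. Arrays numbered 3 did go together between the ING2-WT, ING2-6K/Rmt, DMSO and etoposide groups. They gave 0.348, 0.315, 0.637 and 0.267, against at most -0.298, -0.0502, -0.516 and -0.121 with another number. No arrays were paired in the main fits, and the replicate number was a block only as an alternative. The scripts were tested on simulated data. The number of arrays limits the precision. Named genes were UBE2C, UBE2S, UBE2T, UBE2N, UBE2V1, UBE2V2, UBE2L6, UBE2M and UBE2F, every called member, and the 3 largest changes in each comparison; further members are named with their role group. Of the genes this rule names, 1 is not reported here. Members, lists and tests were chosen with earlier results of these data known. The alternatives tried were other scalings, filters and floors, probes as features, a replicate block, array weights, an unmoderated model as in the study's analysis of variance, and leaving out arrays.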

Additional observations from a re-analysis of the deposited data

Results flagged for a closer look

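The etoposide effect differed between the lines, by a limma test of the difference itself, for UBE2C and UBE2T and for listed genes beside them. The log2 difference of effects, ING2-6K/Rmt minus ING2-WT, was 7.68 for UBE2C and 3.85 for UBE2T. Relative to UBE2N on the same arrays it was 7.30 for UBE2C and 3.47 for UBE2T. It was 1.75 for SAE1, -1.65 for TSG101 and -4.29 for ISG15. Of the 18 anaphase-promoting complex genes measured 5 were called higher, beside 3.85% of all genes. They were CDC20 at 7.59, FBXO5 at 4.97, BUB1B at 4.90, MAD2L1 at 4.38 and FZR1 at 1.35. In the Fanconi list 4 of 10 were higher, FANCI at 5.88, FANCD2 at 5.54, FANCG at 3.98 and USP1 at 3.17. Low signal limits the sizes for FZR1, BUB1B, FANCI and FANCD2. SAE1, FZR1 and TSG101 kept their calls in only 4, 4 and 2 of the 12 fits that left out 1 array. The damage-responsive gene CDKN1A ran in the opposite direction on the arrays labelled ING2-6K/Rmt too, and the part of the labels in these differences was not tested. Groups of 3 arrays are too small for a test of single outlying arrays.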

How the results depend on the processing

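UBE2C kept its direction and its call in all 5 comparisons under every alternative run. A set of named UBE2 genes, UBE2C among them, and the differences from UBE2N gave 1412 recomputed values. Among these 0 called values changed sign, 46 values that were not called differed in sign, 10 calls were lost and 40 were gained. The counts of called UBE2 genes moved most without the arrays numbered 3 and with array weights, and so did the share of all genes called. Without those arrays the counts were 11 and 9 for etoposide in ING2-WT and ING2-6K/Rmt, 9 for the difference of effects, and 4 and 10 for the lines in DMSO and in etoposide, while 28.8, 35, 35.4, 23.2 and 39.7% of all genes were called. With array weights, whose fit stopped short of its tolerance, the counts were 8, 11, 11, 4 and 11, while 30.6, 39.7, 40.2, 28.8 and 43% of all genes were called. With only the groups compared they were 1 and 2 for etoposide in ING2-WT and ING2-6K/Rmt and 1 for the lines in DMSO. Scaling to the 75th percentile, or no scaling, gave 2 for the lines in etoposide. Leaving out 1 array gave 1 to 2 genes for etoposide in ING2-WT, 1 to 2 in ING2-6K/Rmt, 2 to 3 for the difference, 1 to 2 for the lines in DMSO and 1 to 4 in etoposide. The 2 on ING2-6K/Rmt and the 4 in etoposide came without array 3 of ING2-WT in DMSO (9.05% of all genes called for the latter), and the 3 for the difference came without array 3 of ING2-6K/Rmt in DMSO (UBE2O added).

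With the replicate block the count was 3 for etoposide in ING2-WT (UBE2J1 added; 10.6% of all genes called) and 4 for the lines in etoposide (UBE2A, UBE2C, UBE2H and UBE2T; 17.2% of all genes called), and the counts for the other 3 comparisons did not move. Differences from UBE2N taken within same-numbered arrays, 7.30 for UBE2C and 3.47 for UBE2T, had an exact sign-permutation p of 0.25, the smallest possible. Without the arrays numbered 3 they were 6.78 and 3.70 (exact permutation p = 0.0556, also the smallest). Leaving out 1 array gave 6.91 to 7.57 and 3.05 to 3.78.

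Proteins were not compared here. The causes of these shifts were not tested, and members near background, such as UBE2V1, are limited by signal.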
